A study of Mus musculus with 6 samples.

Results

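Phosphoinositides are phosphorylated forms of the membrane lipid phosphatidylinositol, and lipid kinases and phosphatases interconvert them as membrane moves from the plasma membrane through endosomes to lysosomes. The plasma membrane and the clathrin-coated pits that form on it are rich in phosphatidylinositol 4,5-bisphosphate, early endosomes carry phosphatidylinositol 3-phosphate, and late endosomes carry phosphatidylinositol 3,5-bisphosphate, so that each compartment can be recognised by the proteins that bind its lipid. Cells of the renal proximal tubule take up filtered protein by this route at a high rate. Mutations of CLCN5, which encodes the endosomal chloride/proton exchanger ClC-5, and of OCRL, which encodes a phosphoinositide 5-phosphatase, both cause Dent disease in humans, and OCRL mutations also cause Lowe syndrome. The genes described here are Ocrl and its paralogue Inpp5b, the ciliary 5-phosphatase gene Inpp5e, the phosphoinositide 3-kinase genes Pik3c2a and Pik3c3, the genes Pikfyve, Fig4 and Vac14 of the complex that makes and removes phosphatidylinositol 3,5-bisphosphate, the 3-phosphatase gene Mtm1, and Synj1, which encodes synaptojanin 1. They were chosen by name, with earlier results of these data known. Every probe set of the array that carries only 1 of these 10 symbols was taken. This gave 22 probe sets out of 45037 that are not controls, for 10 of the 18193 genes named on the array.

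Transcript signals were measured on Affymetrix mouse arrays in proximal tubules dissected from Clcn5 knockout mice and from wild type mice, with 3 arrays of each genotype. Strain, age, sex, the part of Clcn5 that was deleted and any treatment are not given in the labels. Each array carried RNA pooled from 3 to 4 mice per the series' description, or from 7 mice per the records stored with the arrays, with 80 to 100 tubule pieces of 2 mm from each kidney. Since the records describe the arrays of each genotype as biological replicates, the p-values measure the spread between such pools.

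Clcn5 was lower in the knockout on all 4 of its tested probe sets, with log2 changes of −1.50 to −2.87, on arrays that were scaled to the same trimmed mean of 150. The brightest of the 4 read 1013, 709 and 1029 on wild type arrays 1, 2 and 3 and 352, 322 and 269 on knockout arrays 1, 2 and 3. The tissue label was checked against markers. Slc5a2, the sodium-glucose cotransporter of the early proximal tubule, read 3590 ± 123 in wild type and 3532 ± 237 in knockout (signal, SD, n = 3), and the megalin gene Lrp2 read 4176 ± 272 and 4322 ± 211. Transcripts of neighbouring cells were present too: Umod of the thick ascending limb read 3875 ± 217 in wild type and 5155 ± 269 in knockout, and the podocyte gene Nphs1 read 107 ± 15.4 and 165 ± 12.04. The summed signal of 9 tested leukocyte markers ran from 1972 to 2008 in wild type and from 2856 to 2925 in knockout, and 3 of the 9 rose by the test described below. For 6 podocyte markers the sums were 1501 to 1600 and 1748 to 2072, and for 6 thick ascending limb markers 10266 to 10970 and 12020 to 13266, and 2 members of each list rose. Of 5 markers of the distal convoluted and connecting tubule 4 rose, with sums over the 5 of 7348 to 8324 in wild type and 9018 to 9631 in knockout. Of 8 collecting duct markers 2 rose and 2 fell, and of 8 endothelial and 6 fibroblast and smooth muscle markers none passed. The fibroblast and smooth muscle sums did not overlap, at 950 to 1047 in wild type and 1098 to 1107 in knockout. Those of the collecting duct and endothelial markers overlapped. The summed signal of 9 markers of the first proximal segments overlapped between the groups, at 29754 to 33324 in wild type and 29142 to 31467 in knockout, and 1 of the 9 fell. Of 6 markers of the last proximal segment 1 rose, Slc7a13, from 3692 ± 57.8 in wild type to 4777 ± 166 in knockout. The sums over the 6 did not overlap, at 8029 to 8421 in wild type and 9057 to 9628 in knockout. Their median log2 change was 0.02, with 3 of the 6 above 0 and 3 below 0. In such bulk samples fewer cells of a type and less RNA per cell cannot be told apart.

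Knockout and wild type were compared to ask which members differ when Clcn5 is disrupted. Each gene was represented by its brightest probe set among those whose mean log2 signal reached the array median, and the 11620 genes so kept were fitted together with limma. Of the 10 member genes, 1 fell and none rose at an adjusted p under 0.05 (limma, Benjamini-Hochberg over all 11620 genes). Among all tested genes 6.48% passed in either direction and 3.24% were lower. The gene that fell was Pik3c2a. In 5 of the 10 genes, Pik3c2a, Pikfyve, Pik3c3, Inpp5b and Synj1, the knockout signals did not overlap those of wild type, against 25.2% of all tested genes. The median log2 change was 0.08 over the 10 members and 0.01 over all tested genes. All 22 probe sets were measured, and 18 of them passed the filter, which corresponds to a signal of 41.9. The other 4, which belong to Ocrl, Pik3c2a, Pikfyve and Synj1, are given as signals without a test. Because the table comes without detection calls, a low signal cannot be told from background.

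**Figure D1:**
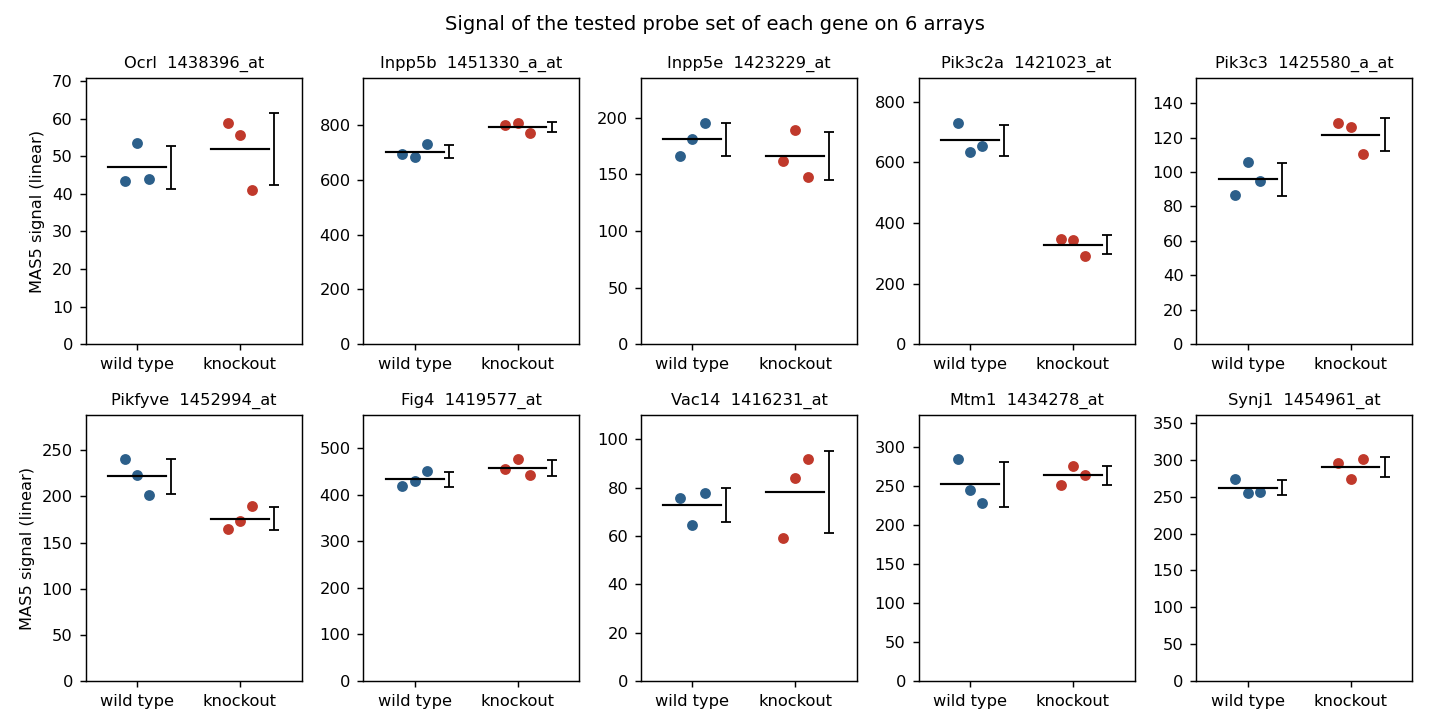
Signals on a linear axis from 0 of the tested probe set of each of the 10 genes, with 1 point per array, wild type in blue and knockout in red; the horizontal line is the mean and the bar beside it 1 SD of 3 arrays. Pik3c2a falls from 673 to 328 with no overlap, Pikfyve, Pik3c3, Inpp5b and Synj1 are separated by smaller gaps, and the other 5 genes overlap.

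Pik3c2a encodes the alpha isoform of the class II phosphoinositide 3-kinases, which is bound to clathrin, makes phosphatidylinositol 3,4-bisphosphate at coated pits as they mature, and also acts on recycling endosomes and at the base of the primary cilium of renal tubule cells. In humans, loss of both PIK3C2A alleles causes a syndrome of short stature, cataract and skeletal abnormalities. Its tested probe set, 1421023_at, read 731, 635 and 653 on wild type arrays 1, 2 and 3 and 346, 345 and 292 on knockout arrays 1, 2 and 3. Every knockout array was thus below the lowest wild type array by a gap several times the SD of either group. The mean was 328 ± 31.1 (SD, n = 3) in knockout against 673 ± 50.9 in wild type, which is 2.05-fold lower. By limma the log2 change was −1.04 (95% interval −1.24 to −0.84, SE 0.09), with an adjusted p of 5.63e-05. Of the 11620 genes, 53 were called with a more negative change.

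A dimmer probe set of Pik3c2a gave a change of the same direction and of similar size. Probe set 1425862_a_at read 125, 107 and 84.6 on the wild type arrays and 50.4, 60.3 and 60.6 on the knockout arrays, again without overlap. It was 1.84-fold lower (log2 change −0.88, SE 0.19). In the fit of all 22519 probe sets that passed the filter, of which 4.76% were called, both passed, at adjusted p = 0.000113 for 1421023_at and 0.0226 for 1425862_a_at by limma. They were the 2 of the 18 tested member probe sets that did so. The call of 1425862_a_at was lost without knockout array 1 or 2, without wild type array 1 or 2, on station 1 alone and without the filter (adjusted p up to 0.124), with log2 changes of −0.92 to −0.74 in those settings. The third probe set, 1443655_s_at, read 10.7 to 21.5 in wild type and 16.2 to 25.8 in knockout, below the filter and with overlapping groups.

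The arrays were washed and stained on 2 fluidics stations, each of which handled both genotypes, so the change could also be read within a station. On station 1, with 2 arrays of each genotype, the log2 difference of 1421023_at was −0.998, and on station 2, with 1 of each, it was −1.12. For 1425862_a_at the differences were −0.90 and −0.82. Knockout array 3, on station 2, was the 1 array recorded with another solution lot, so station 2 compares lots as well as genotypes, which cannot be told apart there, while the 4 arrays of station 1 share a lot. The distal convoluted and connecting tubule markers, 4 of 5 of which rose (median log2 change 0.44 over the 5), and the leukocyte, podocyte and thick ascending limb markers that rose were higher on the same arrays on which Pik3c2a was lower, and their part in its change was not tested.

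The promoter of Pik3c2a is shown because this was the member that changed. It is the stretch from 250 bases before to 50 bases after the start of the gene on the minus strand, chr7:116443409-116443708 of RefSeq's GRCm38.p6, with GC boxes (GGGCGG) and a CCAAT box (CCAAT), each searched on both strands, in capitals.
Pik3c2a: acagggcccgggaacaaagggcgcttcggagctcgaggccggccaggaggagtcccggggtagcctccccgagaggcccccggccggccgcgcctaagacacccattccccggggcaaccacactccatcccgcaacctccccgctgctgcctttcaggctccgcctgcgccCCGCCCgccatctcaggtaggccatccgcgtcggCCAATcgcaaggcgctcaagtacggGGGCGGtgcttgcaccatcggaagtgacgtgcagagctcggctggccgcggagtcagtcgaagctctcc
The window has 70.3% G and C, against a median of 52.7% over 32851 promoters of the same length. It holds 2 GC boxes and 1 CCAAT box. At least 1 GC box is found in 35.7% of those promoters, and at least 1 CCAAT box in 37.4%. The E-box (CACGTG), which 7.15% of the promoters hold, and the TATA box (TATAAA), which 13.6% hold, had no match in this window. None of these motifs overlapped another in it.

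Pikfyve, Fig4 and Vac14 encode the lipid kinase, the phosphatase and the scaffold of 1 complex on endosomes: the kinase adds the phosphate at position 5 to phosphatidylinositol 3-phosphate, Fig4 can remove it, and Vac14 holds both. The knockout signal of Pikfyve was lower on its tested probe set but did not pass the test. Probe set 1452994_at read 240, 223 and 202 on the wild type arrays and 165, 173 and 190 on the knockout arrays. The groups did not overlap, but the gap between the highest knockout and the lowest wild type array was of the size of the SDs, 12.7 and 19.1. The log2 change was −0.33 (95% interval −0.56 to −0.10; limma adjusted p = 0.0967). A further tested probe set, 1422994_at, read 100.2, 97.5 and 82.2 in wild type and 63.4, 93.5 and 60.1 in knockout, with overlap through knockout array 2 (log2 change −0.39, adjusted p = 0.35 in the fit of all probe sets by limma). The third, 1446974_at, gave signals of 3.23 to 22.3 and did not pass the filter. Both tested probe sets had point estimates below 0.

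Fig4 on 1419577_at read 419, 430 and 450 in wild type and 456, 476 and 442 in knockout, and the groups overlapped. Its log2 change was 0.08 (95% interval −0.07 to 0.23; limma adjusted p = 0.593). Vac14 on 1416231_at read 75.6, 64.6 and 77.8 in wild type and 59.0, 84.0 and 91.6 in knockout, so that knockout held both the lowest and the highest array. Its log2 change of 0.09 had a wider interval, from −0.36 to 0.53 (limma adjusted p = 0.872), and was −0.12 on station 1 and 0.51 on station 2.

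Ocrl removes the phosphate at position 5 from phosphatidylinositol 4,5-bisphosphate on coated pits, early endosomes and the Golgi. Its 3 probe sets were all dim on these arrays, and none has a RefSeq transcript as its source in the platform annotation, as 5 of the 22 member probe sets have. The tested probe set, 1438396_at, read 43.5, 53.5 and 44.0 on the wild type arrays and 58.9, 55.8 and 41.0 on the knockout arrays. Knockout held both the highest and the lowest of these signals. The log2 change was 0.13 (95% interval −0.38 to 0.64; limma adjusted p = 0.82), and the difference was 0.39 on station 1 and −0.39 on station 2. Probe set 1438284_at had a log2 change of −0.04 (95% interval −0.56 to 0.49), and 1457313_at, under the filter, read 16.4 to 26.1 in wild type and 11.6 to 22.3 in knockout. No change of Ocrl was detected on these arrays in either direction. Since these signals lie close to the filter and cannot be told from background, a change could have been missed.

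The promoter of Ocrl is given for comparison with that of Pik3c2a, as the Dent disease gene of the set. It lies on the plus strand of the X chromosome, which also carries Clcn5 and Mtm1, at chrX:47912206-47912505 of RefSeq's GRCm38.p6, with the same motifs in capitals.
Ocrl: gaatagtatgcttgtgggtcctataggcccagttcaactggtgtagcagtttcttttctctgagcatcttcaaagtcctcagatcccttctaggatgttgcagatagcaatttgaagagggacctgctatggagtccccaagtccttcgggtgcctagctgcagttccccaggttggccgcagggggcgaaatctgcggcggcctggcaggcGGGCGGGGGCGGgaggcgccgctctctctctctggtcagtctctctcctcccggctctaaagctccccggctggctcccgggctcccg
It holds 2 adjoining GC boxes, no match to any of the other motifs, and 60.0% G and C.

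Inpp5b, a 5-phosphatase with the same domain order as Ocrl and known in mice to cover in part for its loss, gave a clear signal from a single probe set. On 1451330_a_at the wild type arrays read 693, 685 and 731 and the knockout arrays 800, 808 and 771. All 3 knockout arrays were above all 3 wild type arrays, by 1.13-fold on average. This did not pass the test over all genes (log2 change 0.17, SE 0.06, 95% interval 0.04 to 0.31, unadjusted p = 0.0164, limma adjusted p = 0.141). The difference was 0.18 on station 1 and 0.17 on station 2. Inpp5e, whose enzyme keeps the primary cilium low in phosphatidylinositol 4,5-bisphosphate, had probe sets that pointed in opposite directions. The tested one, 1423229_at, read 166 to 196 in wild type and 147 to 190 in knockout with overlapping groups (log2 change −0.13, limma adjusted p = 0.634). Probe set 1423230_at read 91.2 to 98.2 in wild type and 104 to 122 in knockout, without overlap (log2 change 0.26, adjusted p = 0.342 by limma over all probe sets).

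Synaptojanin 1, the product of Synj1, carries a Sac phosphatase and a 5-phosphatase domain and strips phosphatidylinositol 4,5-bisphosphate from clathrin-coated vesicles as they lose their coat. Its brightest probe set, 1454961_at, read 274.1, 256 and 257 in wild type and 296, 274.4 and 301 in knockout. The groups were separated only narrowly, between wild type array 1 and knockout array 2, and the gene did not pass (log2 change 0.15, 95% interval −0.03 to 0.33, limma adjusted p = 0.362). The others overlapped and differed in sign: 1436333_a_at had a log2 change of 0.31 and 1436334_at of −0.21, with adjusted p of 0.421 and 0.599 by limma over all probe sets. Probe set 1439997_at, under the filter, gave signals of 17.7 to 38.4.

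Pik3c3 encodes Vps34, the class III kinase that makes the phosphatidylinositol 3-phosphate of early endosomes and autophagosomes. Its probe set 1425580_a_at read 86.9, 106 and 94.7 in wild type and 129, 126 and 111 in knockout, without overlap. The log2 change of 0.35 (SE 0.14, 95% interval 0.04 to 0.65) did not pass the test over all genes (unadjusted p = 0.0292, limma adjusted p = 0.19), and the difference was 0.49 on station 1 and 0.06 on station 2. Mtm1, myotubularin, removes the phosphate at position 3, and its loss in humans causes an X-linked myopathy. On the tested probe set 1434278_at it read 228 to 284 in wild type and 251 to 276 in knockout, the knockout range lying inside that of wild type (log2 change 0.07, 95% interval −0.15 to 0.29, limma adjusted p = 0.772). Probe set 1416934_at had a log2 change of −0.31, with wild type array 2 at 169 and the other 5 arrays between 87.5 and 108, and 1454904_at had one of −0.02.

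**Figure D2:**
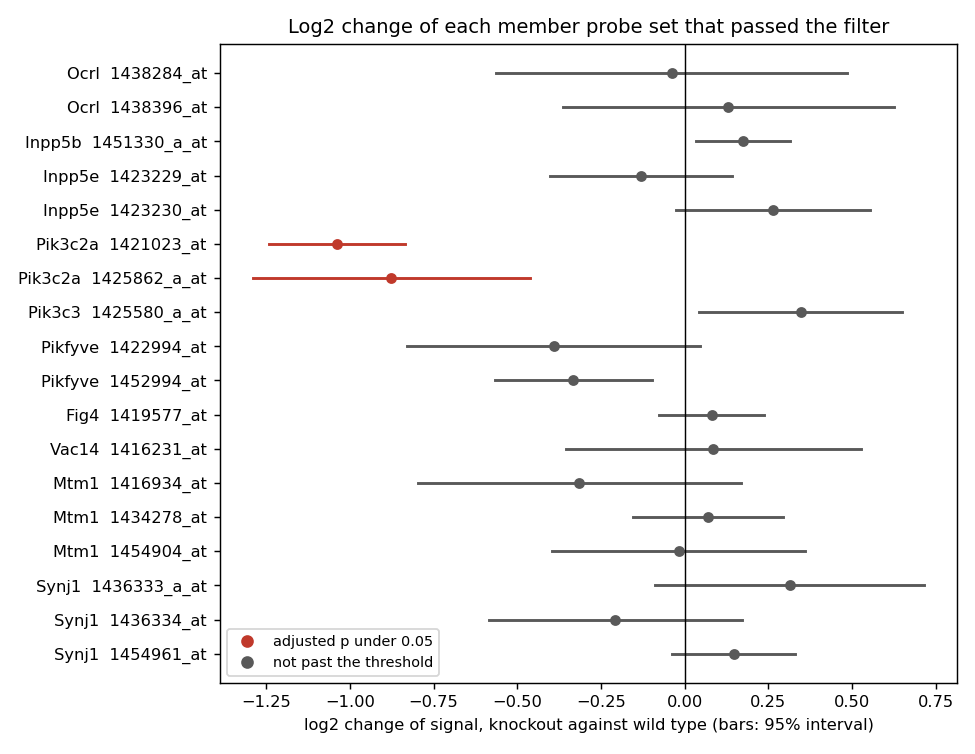
Log2 change of signal in knockout against wild type, with 95% intervals from limma, for the 18 member probe sets that passed the filter. Both tested Pik3c2a probe sets lie below 0 with intervals ending at −0.84 and −0.46. Ocrl, Inpp5e, Mtm1 and Synj1 have probe sets on either side of 0, and both Ocrl intervals cover 0.

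The other genes of the phosphoinositide system were read from 10 lists by role with 85 entries, of which 78 genes were tested. Of these, 2 rose and 2 fell, which is 5.13% against 6.48% of all tested genes, and 19.2% had groups without overlap against 25.2%. The median log2 change was 0.03. The number that passed was 2 when knockout array 1, wild type array 2 or wild type array 3 was left out, and also on station 1 alone, with no intensity trend and with averaged probe sets.

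The larger of the 2 falls was that of Mcoln1, which encodes TRPML1, the lysosomal cation channel that opens on binding phosphatidylinositol 3,5-bisphosphate, the lipid made by the kinase encoded by Pikfyve. It read 541, 529 and 514 in wild type and 378, 337 and 403 in knockout, so that the groups lay far apart. The fall was 1.42-fold, with a log2 change of −0.51 (SE 0.08) and an adjusted p of 0.00285 by limma. A second probe set of Mcoln1, 1416672_s_at, had a log2 change of −0.49 (adjusted p = 0.0266 by limma over all probe sets). Mcoln1 was the only one of 12 endosomal and autophagy proteins on its list to pass, and the list's median was −0.01; Snx3, a sorting nexin that binds phosphatidylinositol 3-phosphate, had the next smallest p, at a log2 change of 0.15 (adjusted p = 0.327).

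Of the phosphatases of position 3 and their relatives, 13 genes were tested. Among them Mtmr11, a myotubularin relative that lacks the catalytic residues, was the 1 that passed. It read 352, 403 and 367 in wild type and 279, 305 and 286 in knockout (1.29-fold lower, limma adjusted p = 0.0222), a call lost in 7 of 16 other settings, with adjusted p up to 0.16. Sbf2, also of the myotubularin family, had a log2 change of 0.14 (adjusted p = 0.251). None of 6 further 5-phosphatases passed; Inpp5k had a log2 change of 0.20 (adjusted p = 0.171) and Inppl1, which encodes SHIP2, of 0.13 (0.386). None of 5 Sac and 4-phosphatase genes passed, with Pip4p1 at 0.20 (adjusted p = 0.232) and Pip4p2 at −0.09 (0.46).

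Among the kinases, Pi4ka, which makes phosphatidylinositol 4-phosphate at the plasma membrane, rose 1.18-fold. It read 1615, 1603 and 1693 in wild type and 1966, 1912 and 1906 in knockout (limma adjusted p = 0.036), but the call was lost in 11 of 16 other settings, among them the omission of any 1 array, and its other tested probe set was at −0.12. Pi4kb, the Golgi enzyme, was dim, with a log2 change of 0.65 (adjusted p = 0.175). Of 6 kinases of phosphatidylinositol phosphates none passed. Pip4k2b, a 5-phosphate 4-kinase, had the lowest change, −0.64, with 94.8, 121 and 92.6 in wild type against 74.2, 57.3 and 65.7 in knockout (adjusted p = 0.0579). It passed under quantile normalization (0.0489) and in the fit with averaged probe sets (0.0453). Averaging left its own signals as they were, since only 1435068_at was kept for it. Pip5k1b was at −0.42 (adjusted p = 0.354).

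None of 9 tested genes on the class I kinase list passed, nor did any of 6 class II and III partners. In the class I list Pik3r1 was at −0.12 (adjusted p = 0.527) and Pik3ap1, which encodes an adaptor rather than a subunit, at 0.27 (0.587). Among the partners Pik3r4, the Vps15 subunit bound to Vps34, was at 0.19 (adjusted p = 0.318) and Becn1 at −0.14 (0.467). Pitpnb, a phosphatidylinositol transfer protein, rose 1.30-fold, from 788, 829 and 781 to 1068, 986 and 1074 (limma adjusted p = 0.00385). Its 3 other tested probe sets had log2 changes of 0.03, 0.03 and 0.15, and with its probe sets averaged the call was lost (log2 change 0.15, adjusted p = 0.333). Cds1, which makes the precursor CDP-diacylglycerol, was at −0.22 (adjusted p = 0.282). The other tested probe set of Cds1 was at 0.15. None of 10 tested OCRL binding partners passed, the smallest p being those of Rac1 at 0.17 (adjusted p = 0.288) and Rab35 at 0.19 (0.446).

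**Figure D3:**
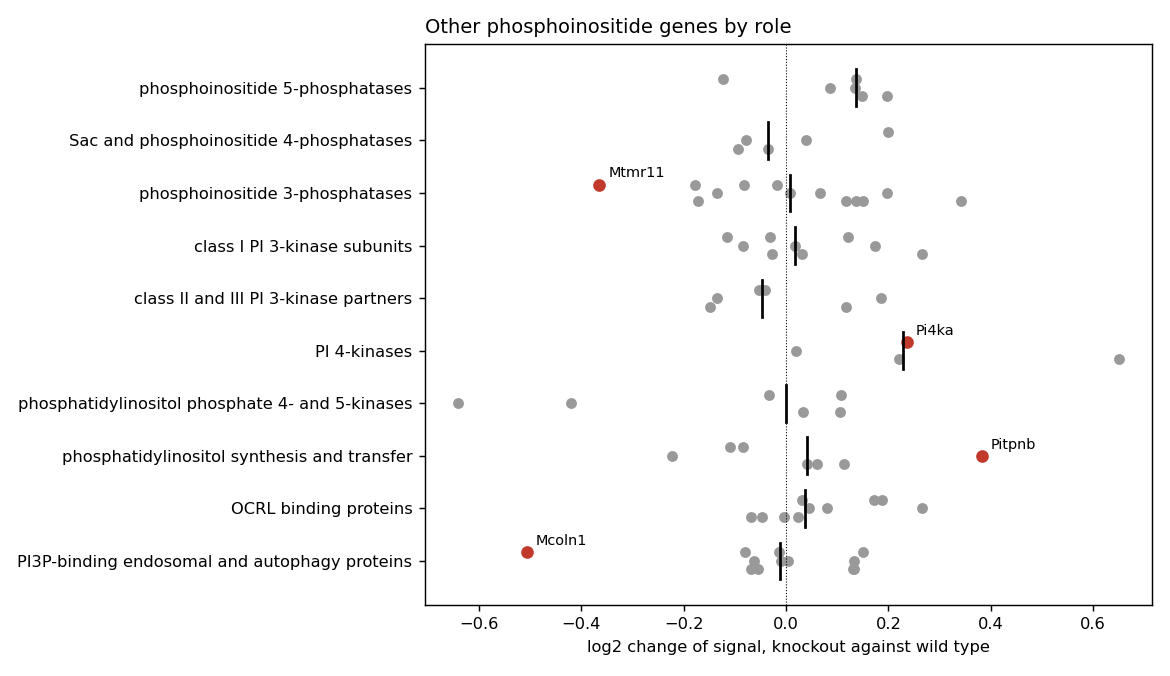
Log2 change of signal in knockout against wild type for each tested gene of the 10 role lists, 1 point per gene, red where the adjusted p was under 0.05, with the list median as a black line. The medians of the lists lie between −0.05 and 0.23, and Mcoln1 at −0.51 and Pitpnb at 0.38 are the called genes farthest from 0.

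**Figure D4:**
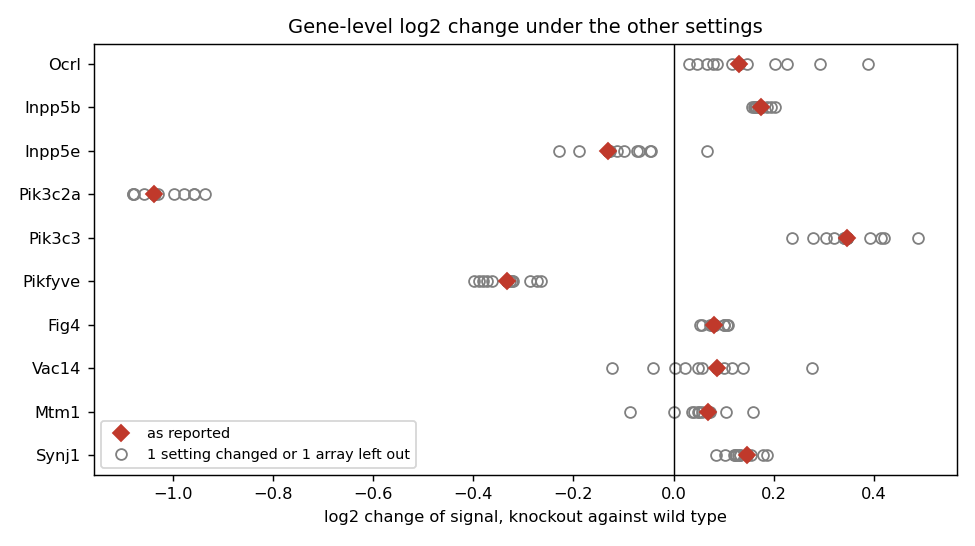
Log2 change of the 10 member genes as reported (red diamonds) and with 1 setting changed or 1 array left out (open circles). Pik3c2a stays between −1.08 and −0.94 and Pikfyve between −0.40 and −0.27, while Vac14, Mtm1 and Inpp5e have values on either side of 0.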

How the data were processed

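The 6 arrays were assigned to knockout or wild type from the sample titles. The authors deposited linear signal intensities, and the submitters' processing notes name GCOS 1.4 and MAS5. In the table every array had a trimmed mean of 150, with 2% trimmed at each end. Per the labels, 1 round of amplification was primed with oligo dT, which favours sequence near the poly(A) tail. Of 45101 probe sets, 64 were controls and not used. The platform annotation gives 34945 of the rest 1 gene symbol, 932 several and 9160 none, and only those with 1 symbol were named.

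The log2 of each signal was taken with nothing added. Probe sets with a mean log2 signal at or above the median were kept, and the kept probe set with the highest mean represented a gene. The 11620 genes, and separately the 22519 kept probe sets, were fitted by lmFit with 4 residual degrees of freedom (limma 3.58.1, R 4.3.3). This was followed by eBayes allowing for a trend with intensity. The two-sided tests and intervals used its total degrees of freedom, prior and residual, and p-values were adjusted by Benjamini-Hochberg at 0.05. Fold changes are ratios of geometric means. With 3 arrays a group, which limits the precision, the median SE of a log2 change was 0.12. The fit and its adjustment, but not the filter or the choice of probe set, were tried on simulated probe set values. Other software was matplotlib 3.10.9, pandas 2.3.3, Python 3.11.15 and numpy 2.4.6.

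The members, the 10 role lists and the 9 marker lists were chosen with earlier results of these data known. Named genes are all members, Clcn5, and of each role list every gene past the threshold, filled up to 2 by the smallest p. RefSeq tables (GRCm38.p6) gave promoters, gene order and 2 updated symbols. Alternatives changed the offset, normalization, filter, probe set choice, variance model, array weights, station and replicate blocks, and left out each array.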

Additional observations from a re-analysis of the deposited data

How the results depend on the processing

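Over 16 other settings, 154 of 158 values of the member genes kept their direction and their side of the threshold, and Pik3c2a passed in all 16 (log2 change −1.08 to −0.94, adjusted p up to 0.00384). The 4 others, all far from the threshold, changed sign: Inpp5e (0.0666) and Mtm1 (−0.0876) with averaged probe sets, and Vac14 on station 1 alone (−0.12) and without knockout array 3 (−0.0406, in a range of −0.0406 to 0.277 with 1 array left out). Its probe set 1416231_at has the same values. Probe set 1438284_at of Ocrl was at −0.15 to 0.15 with 1 array left out, turning positive without knockout array 2 or wild type array 3. Probe set 1454904_at of Mtm1 ran from −0.18 to 0.10 with 1 array left out and was positive with array weights (9.1e-05) and on station 1 alone (0.13). Inpp5k was at −0.040 with averaged probe sets.

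The count of changed genes, 753, was 487 without the intensity trend and 453 on station 1 alone, which has fewer arrays, and 512 to 733 with 1 array left out. The count of changed probe sets, 1071, was 615, 651 and 663 to 1022. The count of changed pathway genes, 4, was 2 without the trend, on station 1 alone and with averaged probe sets, and 2 to 3 with 1 array left out. The member count was 1 throughout. With the replicate block 765 genes passed, Pik3c2a among them. Deviations of same-numbered arrays correlated at 0.01, 0.04 and −0.04, so no shared deviation was seen. This does not settle whether the numbers mark paired animals or dissections. Low signals limit Ocrl and Vac14 most.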

Other observations

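The genes nearest to Pik3c2a and Ocrl in the order of the RefSeq table were read as values, a choice made after the data were seen, with the 3 nearest tested genes on each side. Next to Pik3c2a on chromosome 7, the nearest tested gene on one side was Nucb2, which encodes the calcium-binding protein nucleobindin 2. It was lower in knockout, at 50.1 ± 27.1 against 151 ± 6.77 (SD, n = 3), with a log2 change of −1.79 (limma adjusted p = 0.0205). Its mean knockout signal was near the filter signal of 41.9 and its knockout arrays spread widely, so the size of the fall is uncertain. Nucb2 was the 1 of 6 neighbours that passed, while 6.48% of all tested genes did. Nucb2 lay 2 protein-coding genes from Pik3c2a, and Syt17, the farthest of the 6, lay 8 away. Plekha7, the nearest on the other side, had a log2 change of −0.06 (adjusted p = 0.735), and the remaining 4 had log2 changes of −0.21 to 0.11.

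Among the 6 neighbours of Ocrl on the X chromosome, Xpnpep2, which encodes a membrane-bound aminopeptidase P, was lower in knockout (72.9 ± 7.07 against 135 ± 17.1; log2 change −0.89, limma adjusted p = 0.00422). The other 5 did not pass, with log2 changes of −0.01 to 0.19, and 6.48% of all tested genes passed. Xpnpep2 lay 2 protein-coding genes from Ocrl, and Xiap, the farthest of the 6, lay 11 away. Whether the members and their neighbours share a cause was not tested.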
